A study of Mus musculus with 12 samples.

Results

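The type II hair shaft keratins are the basic-to-neutral partners of the hard keratin filaments that fill the hair shaft. They were chosen by gene symbol from a list of 6 names, Krt81 to Krt86, and 5 of the 6 were found among the 46078 genes counted; Krt85 was not analysed here. The study sequenced epidermal RNA of newborn mice in 12 libraries, 3 for each of 4 genotypes, to ask how gene expression changes when Llgl1 and Llgl2 are mutated with both Trp53 alleles or after deletion of a single allele. All mice carried K14-Cre, in which the keratin 14 promoter drives Cre recombinase in basal keratinocytes and in the follicle cells that descend from them, and the controls carried only this transgene. Llgl cKO mice were K14-Cre with Llgl1/2 flox/flox, Trp53 het mice were K14-Cre with Trp53 +/flox, and the combined mutants, written Llgl cKO Trp53 het in the figures, carried K14-Cre, Llgl1/2 flox/flox and Trp53 +/flox together. Llgl1 and Llgl2 are the mammalian homologues of a fly gene for cell polarity, and Trp53 encodes the tumour suppressor p53. Deletion was limited to cells with Cre activity, so RNA from other cells of the sample kept the intact alleles.

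Keratins form filaments from obligate pairs of a type I and a type II chain, and hair shaft keratins are rich in cysteines that crosslink the shaft with keratin-associated proteins. In the growing follicle, matrix cells above the dermal papilla leave the cell cycle and switch on shaft keratins in order, with some genes in the cuticle and others in the cortex as the cells move upwards. Krt81, Krt83 and Krt86 are known as cortex keratins, Krt82 as a cuticle keratin, and Krt84 is best known from the filiform papillae of the tongue and from the nail rather than from the shaft. Newborn mouse skin is building its first hairs, so follicle RNA is a normal part of such a sample.

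All 5 genes lie in the type II keratin cluster on mouse chromosome 15 (GRCm38, GENCODE M21 gene models), and no other annotated gene overlaps any of them. From left to right they are Krt83 at chr15:101431038-101438804, Krt81 at chr15:101459061-101463751, Krt86 at chr15:101473478-101479986, Krt84 at chr15:101525026-101532820 and Krt82 at chr15:101541214-101550667. Krt86 is on the plus strand and the other 4 are on the minus strand. The gene named Krt83 in the count table (ENSMUSG00000047641) carries the symbol Krt87 in GENCODE M21, and the newer symbol Krt83 belongs there to the gene that the table names 5430421N21Rik (ENSMUSG00000067613, chr15:101485130-101491512, minus strand). The names of the table are used throughout. The label cortex keratin follows the table's symbol for Krt83, and the site of expression of that gene was not measured here. 5430421N21Rik is not among the members and was added after its values had been seen, because it is a near copy of 3 of them.

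Krt81, Krt83, Krt86 and 5430421N21Rik are close copies, which bears on how well their counts can be separated. The coding sequence of Krt81 was 93.6% identical to that of Krt86, 93.3% to 5430421N21Rik and 89.2% to Krt83, but only 67.5% to Krt82 and 64.4% to Krt84. A stretch of 60 coding bases (bases 355 to 414 of the Krt81 coding sequence, GENCODE M21 transcripts) shows both classes. It was identical in the 4 close copies, while Krt82 differed from it at 6 positions and Krt84 at 11. The lines give it for Krt81, Krt82 and Krt84, 5′ to 3′ on the coding strand, with capitals where a base differs from Krt81.
Krt81: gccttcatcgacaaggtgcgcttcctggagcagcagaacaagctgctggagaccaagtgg
Krt82: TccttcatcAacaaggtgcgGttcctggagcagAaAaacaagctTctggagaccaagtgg
Krt84: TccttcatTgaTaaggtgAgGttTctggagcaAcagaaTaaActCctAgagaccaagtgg
A read that falls in such a stretch cannot be assigned to a single copy. Of all 50-base windows of the Krt81 transcript, 43.5% also occur in a transcript of another gene, against 43.3% for Krt86, 36.9% for Krt83 and 0% for both Krt82 and Krt84. At 100 bases these shares were 29%, 24.6% and 11% for Krt81, Krt86 and Krt83, and again 0% for Krt82 and Krt84. The read length and the handling of reads with several matches are not given in the sources used here, so the split of counts among the 3 cortex keratins is uncertain, and their sum with 5430421N21Rik is given beside the single genes.

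Krt82 and Krt84 are neighbours in the cluster, and the 2 members with a RefSeq promoter sequence (GRCm38.p6) used here. Their upstream 250 bases are printed because the levels of these neighbours lay in opposite directions in the results that follow, Krt84 without passing the test. Both are on the minus strand, at chr15:101550660-101550909 for Krt82 and chr15:101532821-101533070 for Krt84, 5′ to 3′ with the gene's start at the right-hand end. Capitals mark the longest run of letters that both windows hold.
Krt82: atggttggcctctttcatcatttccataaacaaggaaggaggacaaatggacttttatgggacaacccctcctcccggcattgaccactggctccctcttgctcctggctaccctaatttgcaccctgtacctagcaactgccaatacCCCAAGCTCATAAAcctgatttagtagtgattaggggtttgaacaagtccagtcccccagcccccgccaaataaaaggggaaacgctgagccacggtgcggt
Krt84: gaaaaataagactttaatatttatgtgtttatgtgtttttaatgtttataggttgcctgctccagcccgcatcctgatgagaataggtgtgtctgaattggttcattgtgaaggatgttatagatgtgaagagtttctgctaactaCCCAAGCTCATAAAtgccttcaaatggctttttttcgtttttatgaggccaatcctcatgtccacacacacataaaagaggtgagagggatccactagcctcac
The shared run CCCAAGCTCATAAA is 14 bases long and sits at almost the same distance from both starts, from -102 to -89 in Krt82 and from -104 to -91 in Krt84. Searched on both strands, it occurs in 2 of 32851 RefSeq promoter windows (0.00609%), which are these. The run was picked because both windows hold it, so these 2 matches were certain and the share is no sign of a special link. How often other promoters share a run of this length was not measured. The letters ATAAAA stand at -32 to -27 in Krt82 and at -33 to -28 in Krt84 on the gene's strand, and 17% of all promoter windows hold them on either strand. The core CTTTGA of the Lef/Tcf motif is in neither window and in 13.8% of all. These matches describe the letters only, since the data hold no measurement of binding.

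The libraries held 6738720 to 14509507 counts. Levels are given as CPM, read counts scaled to a common library size, with the sizes adjusted by the trimmed mean of M-values (TMM), and as mean ± SD over 3 libraries. Of the 46078 genes, 14582 passed a filter on low counts and were tested with edgeR's quasi-likelihood test, in a model of the 4 group means over the 12 libraries; "called" means a Benjamini-Hochberg adjusted p below 0.05 over all genes tested, and all adjusted p-values are of this kind unless DESeq2 is named. All 5 hair keratins passed the filter, but Krt84 reached 10 counts only in the 4 libraries where it was highest. By the stated numbers each library is a separate mouse, and the p-values measure the spread between these libraries. Llgl2 averaged 86.7 ± 22.3 CPM in control and 90.9 ± 22.0 in Trp53 het, but only 8.35 ± 1.16 in Llgl cKO and 8.51 ± 3.38 in the combined mutant (n = 3 each), as labelled. The counts of Llgl1 went the other way, as Llgl cKO held 256 ± 33.1 CPM and the combined mutant 215 ± 30.5, whereas control held 138 ± 30.6 and Trp53 het 133 ± 9.58, and Llgl1 was called higher in the average Llgl effect defined with Krt81 (log2 difference 0.79, edgeR adjusted p = 0.0072). Which part of Llgl1 the flox alleles remove is not given in the sources used here, so counts over the whole gene do not check its deletion. Trp53 het averaged 79.2 ± 30.9 CPM of Trp53 and the combined mutant 77.3 ± 18.2, whereas control averaged 121 ± 11 and Llgl cKO 118 ± 5.50. Among the libraries with a Trp53 flox allele, Trp53 het 3 was at 115 CPM and combined mutant 1 at 98.3, while the other 4 were between 60.9 and 67.8. Interfollicular epidermis markers summed to between 68500 and 126000 CPM in every library, as fits the labelled tissue, and endothelial markers to at most 1.86. Control 3 and Trp53 het 3 stood apart from the other libraries of their groups in the hair genes and in fibroblast and dermal papilla markers, so the results are also given without both.

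The cortex and cuticle keratins Krt81, Krt86, Krt83 and Krt82 were all much lower in combined mutant epidermis than in control or Trp53 het epidermis, by 14.6-fold to 46.2-fold. Krt84, in contrast, had its higher levels in the combined mutant libraries and in Llgl cKO 1, and passed the low-count filter only through these. With all libraries edgeR called Krt84 in no comparison. Averaged over both Trp53 genotypes, the same 4 keratins were 6.48-fold to 13.3-fold lower with Llgl1/2 flox/flox. In such bulk libraries fewer hair shaft cells and less keratin RNA per cell cannot be told apart. The plot of levels by library shows the 5 genes side by side.

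**Figure D1:**
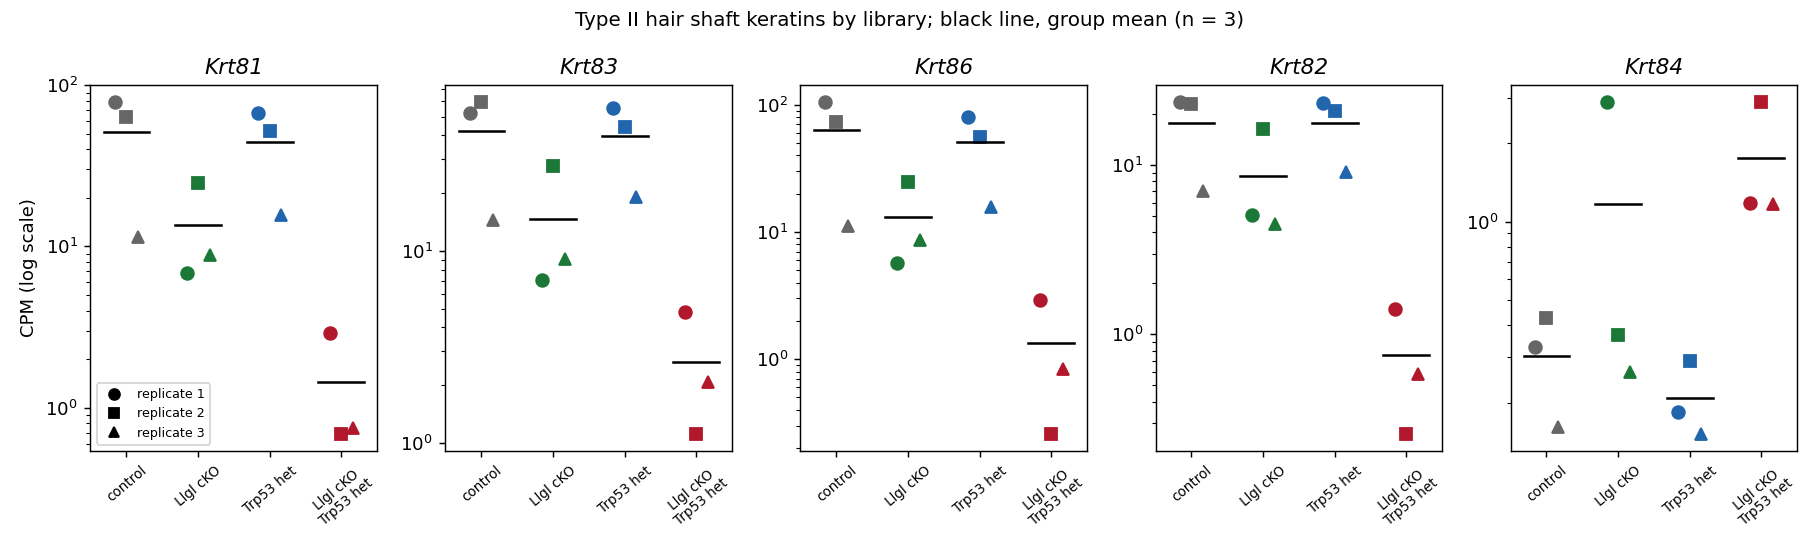
Level of each type II hair shaft keratin in CPM (vertical axis, log scale, with its own range in each panel) in the 12 libraries, by genotype along the horizontal axis; symbols give the replicate number and the black line the group mean of 3. For Krt81, Krt83, Krt86 and Krt82 the 3 Llgl cKO Trp53 het libraries lie below every other library, and for Krt84 they lie above all control and Trp53 het libraries.

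Krt81, a cortex keratin, measured 79.1, 63.3 and 11.5 CPM in controls 1 to 3 and 66.8, 51.7 and 15.6 CPM in Trp53 het 1 to 3. It measured 6.87, 24.7 and 8.81 CPM in Llgl cKO 1 to 3, and 2.90, 0.683 and 0.754 CPM in combined mutant 1 to 3. The third library was the lowest of the control and Trp53 het groups, Llgl cKO overlapped control, and every combined mutant library lay below all others. In the combined mutant, Krt81 fell by 5.11 on the log2 scale against control (SE 0.947, 95% interval -7.20 to -3.03, edgeR adjusted p = 0.035), which is 34.5-fold lower. Against Trp53 het it fell by 4.92 (SE 0.942, edgeR adjusted p = 0.039). In the average Llgl effect, the mean of the Llgl difference in both Trp53 genotypes over 6 against 6 libraries, Krt81 fell by 3.42 (SE 0.609, edgeR adjusted p = 0.016).

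Krt86, a cortex keratin that shares the most sequence with Krt81, measured 106, 73.7 and 11.2 CPM in control, and 80.0, 56.1 and 15.8 CPM in Trp53 het. It measured 5.70, 24.9 and 8.63 CPM in Llgl cKO and 2.90, 0.256 and 0.837 CPM in the combined mutants, the second of these from 3 counts. The order of the libraries was the same as for Krt81, with control 3 and Trp53 het 3 low and the combined mutant libraries below all others. Krt86 had the largest difference of the 4 lower keratins, a fall of 5.53 on the log2 scale from control to the combined mutant (SE 1.09, 95% interval -7.93 to -3.13, edgeR adjusted p = 0.043) and of 5.21 from Trp53 het (SE 1.08, edgeR adjusted p = 0.048). Its interval overlapped those of the other 3. Its average Llgl effect was a fall of 3.74 (SE 0.698, edgeR adjusted p = 0.018).

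Krt83, a cortex keratin by the table's symbol, measured 52.5, 59.9 and 14.5 CPM in control, and 55.4, 44.0 and 19.0 CPM in Trp53 het. The Llgl cKO libraries held 7.08, 27.8 and 9.07 CPM, and the combined mutant libraries 4.79, 1.11 and 2.09 CPM. Again Llgl cKO overlapped control and the combined mutant libraries did not overlap any other group. Krt83 fell by 3.97 on the log2 scale from control to the combined mutant (SE 0.773, edgeR adjusted p = 0.042), by 3.87 from Trp53 het (SE 0.771, edgeR adjusted p = 0.044) and by 2.70 in the average Llgl effect (SE 0.511, edgeR adjusted p = 0.019).

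The near copy 5430421N21Rik measured 77.3, 71.4 and 11.3 CPM in control, 8.04, 29.2 and 10.4 in Llgl cKO, 72.1, 50.4 and 20.9 in Trp53 het, and 4.24, 0.427 and 1.17 in the combined mutant. Its libraries stood in the same order as those of Krt81 and Krt86. Counting Krt81, Krt83, Krt86 and 5430421N21Rik as a single gene, a step chosen after the data had been seen, gave sums of 315, 268 and 48.5 CPM in control, 27.7, 107 and 36.9 in Llgl cKO, 274, 202 and 71.3 in Trp53 het, and 14.8, 2.48 and 4.86 in the combined mutant. The sum, which does not depend on how reads were split among these 4 copies, fell by 4.82 on the log2 scale from control to the combined mutant (SE 0.935, edgeR adjusted p = 0.04). The average Llgl effect of the sum was a fall of 3.25 (SE 0.61, edgeR adjusted p = 0.019). Krt83 shares windows with a further gene model of the cluster as well, Gm49425, and more of them than with any other gene. Gm49425 was not analysed here, so the sum still depends on how reads common to it and Krt83 were assigned.

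Krt82, the cuticle keratin, shares no 50-base window with another gene. It measured 23.7, 22.8 and 7.01 CPM in control, and 23.2, 20.8 and 9.11 CPM in Trp53 het. The Llgl cKO libraries held 5.08, 16.4 and 4.49 CPM, and the combined mutant libraries 1.41, 0.256 and 0.586 CPM. The groups stood to each other as in the cortex keratins, with Llgl cKO overlapping control and the combined mutant below every other library. Krt82 fell by 4.52 on the log2 scale from control to the combined mutant (SE 0.777, 95% interval -6.23 to -2.81, edgeR adjusted p = 0.031), which is 22.9-fold lower, and by 4.51 from Trp53 het (SE 0.777, edgeR adjusted p = 0.032). Its average Llgl effect was a fall of 2.77 (SE 0.498, edgeR adjusted p = 0.016).

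In the combined mutant against control, 4 of the 5 genes were thus called lower and 0 higher, where 0.905% of all genes tested were called lower. The median log2 difference of the 5 was -4.52, against -0.0059 over all genes tested. The 4 genes also did not overlap between these groups, which held for 9.2% of all genes tested in the lower direction. Against Trp53 het, 4 of the 5 were called lower, where 0.919% of all genes were, with a median of -4.51, and the same 4 did not overlap, which held for 10.7% of all genes in that direction. In the average Llgl effect 4 of the 5 were called lower, where 2.15% of all genes were, with a median of -2.77. These comparisons share the combined mutant libraries and, in part, the controls, and are given side by side. The calls lay close to the threshold and several single libraries decided them. Those against control fell from 4 to 0 without control 1, control 2, Trp53 het 2, or replicate 2 or 3 of the combined mutant, to 2 without Llgl cKO 3 or combined mutant 1, and to 0 with no low-count filter, a required change of at least 1.5-fold or only the 2 groups in the fit, while the log2 differences of the 4 genes kept their direction in each of these fits. In the average Llgl effect the count was 0 without replicate 2 or 3 of the combined mutant and 2 without control 2 or Llgl cKO 1, and against Trp53 het it was 0 to 2 without control 1 or 2, Llgl cKO 3, Trp53 het 1 or 2, or any of the combined mutants.

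Control 3 and Trp53 het 3 widened the spread of the groups they belong to. They were also the lowest of their groups in these 4 keratins, so leaving them out makes the differences larger by construction, and the values without them are a description that adds no support. Without both, Krt81 fell by 5.58 on the log2 scale from control to the combined mutant (edgeR adjusted p = 0.0019), Krt82 by 4.91 (0.0012), Krt83 by 4.38 (0.0057) and Krt86 by 6.03 (0.0037). The same 4 genes were called in that fit against Trp53 het, with edgeR adjusted p from 0.0015 to 0.007, and in the average Llgl effect, with edgeR adjusted p from 0.00072 to 0.0026. In Llgl cKO against control they were at -2.39, -1.42, -1.94 and -2.77 (Krt81, Krt82, Krt83 and Krt86) with edgeR adjusted p of 0.062, 0.19, 0.13 and 0.068, so none was called. In that fit 7.72% of all genes were called against control, 7.37% against Trp53 het, 15.8% in the average Llgl effect and 2.8% in Llgl cKO against control.

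Krt84 departed from this pattern. It was counted 2, 5 and 2 times in controls 1 to 3 and 2, 2 and 2 times in Trp53 het 1 to 3, which is 0.327, 0.425 and 0.161 CPM and 0.185, 0.291 and 0.151 CPM. In Llgl cKO it stood at 2.89, 0.364 and 0.264 CPM (42, 5 and 3 counts), and in the combined mutant at 1.18, 2.90 and 1.17 CPM (15, 34 and 14 counts). The 3 combined mutant libraries lay above every control and Trp53 het library, and a single Llgl cKO library, replicate 1, lay within their range. A lack of overlap in the higher direction held for 7.87% of all genes tested against control and 9.75% against Trp53 het.

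With all 12 libraries edgeR did not call Krt84 in any comparison, and its low counts limit the precision. It passed the low-count filter only through the libraries in which it was high, so its p-values describe these libraries and support no difference. The log2 difference from control to the combined mutant was 2.50 (SE 0.896, 95% interval 0.54 to 4.46, edgeR adjusted p = 0.23) and that from Trp53 het was 3.08 (SE 0.953, edgeR adjusted p = 0.14). The average Llgl effect was 2.52 (SE 0.66, 95% interval 1.08 to 3.97, edgeR adjusted p = 0.063), and DESeq2 called it (2.54, DESeq2 adjusted p = 0.0096), as it did 7.09% of all genes in this comparison. edgeR placed the average Llgl effect past the threshold without Llgl cKO 2 (2.73, edgeR adjusted p = 0.041) or Llgl cKO 3 (2.74, edgeR adjusted p = 0.046), the low libraries of that group. Without Llgl cKO 1, the high one, it was 1.58 (edgeR adjusted p = 0.15), and the difference from Trp53 het, of 3.08, had an edgeR adjusted p of 0.042. The plot of log2 differences gives all 5 genes in the 5 pairwise comparisons.

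**Figure D2:**
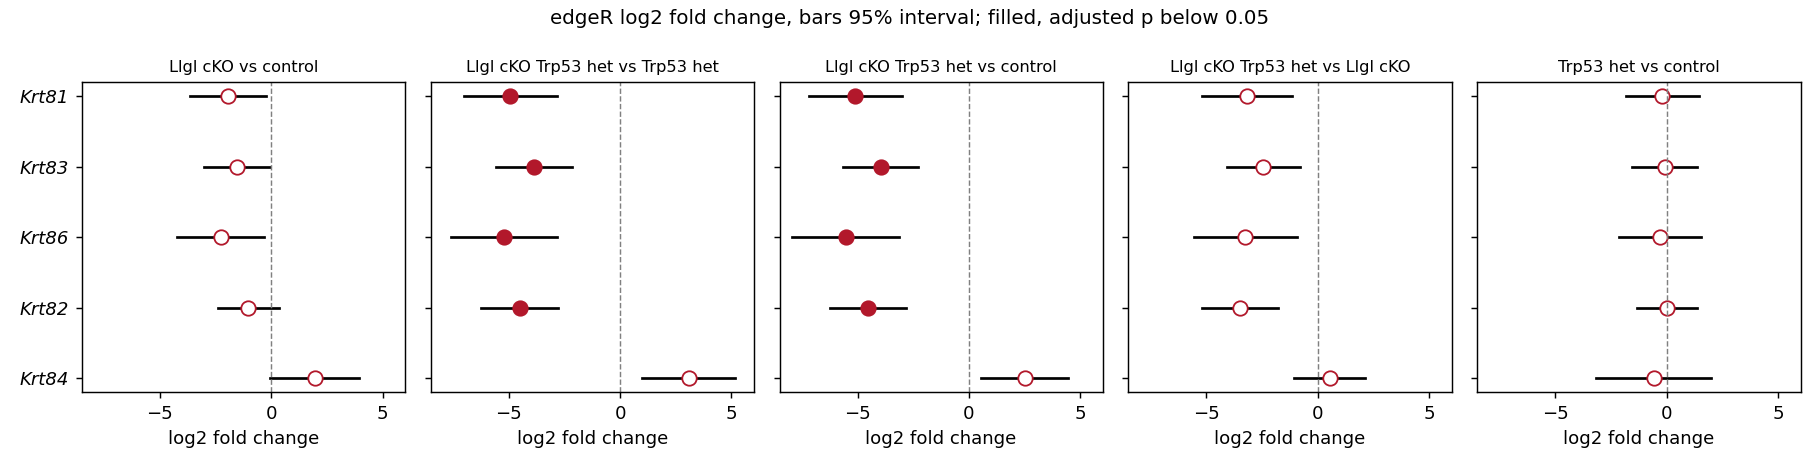
edgeR log2 fold change (horizontal axis) of the 5 hair keratins in each pairwise comparison, with 95% intervals as bars and filled points where the adjusted p is below 0.05. Krt81, Krt83, Krt86 and Krt82 are filled and between -5.53 and -3.87 in both comparisons of Llgl cKO Trp53 het with groups that lack the Llgl1/2 flox alleles, and open in the other 3 panels.

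With both Trp53 alleles present, the cortex and cuticle keratins were lower in the mean of Llgl cKO than of control, and none was called. From control to Llgl cKO, with the edgeR adjusted p in parentheses, Krt81 differed by -1.92 on the log2 scale (0.70), Krt82 by -1.03 (0.89), Krt83 by -1.52 (0.77), Krt86 by -2.27 (0.69) and Krt84 by 1.96 (0.80). Of the 5 genes 0 were called, where 0.226% of all genes were, and DESeq2 called 0. An unadjusted edgeR p below 0.05 was found for 3 of the 5 and for 920 of all 14582 genes tested. All 5 overlapped between the groups, where 5.31% of all genes lay wholly lower and 4.49% wholly higher. The interval of Krt81 ran from -3.62 to -0.22 and that of Krt82 from -2.40 to 0.34. Without Llgl cKO 1, Krt84 differed by only 0.08.

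With deletion of a single Trp53 allele on its own, each of the 5 genes differed from control by less than the standard error of the difference. From control to Trp53 het the log2 differences were -0.19 for Krt81 (95% interval -1.83 to 1.44), -0.01 for Krt82, -0.10 for Krt83, -0.32 for Krt86 and -0.58 for Krt84, each with an edgeR adjusted p of 1. None was called and 0% of all genes were, and DESeq2 called 0. An unadjusted edgeR p below 0.05 was found for 0 of the 5 and for 63 of all 14582 genes tested. The intervals do not exclude a 2-fold change in either direction for Krt81.

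Within Llgl1/2 flox/flox mice, the libraries with a deleted Trp53 allele were lower in the cortex and cuticle keratins without passing the test. From Llgl cKO to the combined mutant the log2 differences, with the edgeR adjusted p in parentheses, were -3.19 for Krt81 (0.69), -3.49 for Krt82 (0.67), -2.44 for Krt83 (0.71), -3.26 for Krt86 (0.75) and 0.54 for Krt84 (1). The 4 lower genes did not overlap between these groups, which held for 5.13% of all genes in that direction. Of the 5, 0 were called, where 0% of all genes were. An unadjusted edgeR p below 0.05 was found for 4 of the 5 and for 747 of all 14582 genes tested. DESeq2 called 1, Krt82 (DESeq2 adjusted p = 0.0014), where it called 0.357% of all genes. Whether the Llgl difference itself depended on Trp53 was tested by the interaction, which was -3.00 for Krt81, -3.48 for Krt82, -2.35 for Krt83, -2.94 for Krt86 and 1.12 for Krt84, all with an edgeR adjusted p of 1. No gene of the 14582 was called in the interaction (0%), and DESeq2 called 0 of the 5. An unadjusted edgeR p below 0.05 was found for 3 of the 5 and for 428 of all 14582 genes. The larger differences in Trp53 heterozygotes are thus not shown to differ from those with both Trp53 alleles.

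Compared per length, as CPM per kilobase of exon sequence, the control epidermis held Krt86 at 32.4 ± 24.5, Krt81 at 24.2 ± 16.7, Krt83 at 18.6 ± 10.7, Krt82 at 8.45 ± 4.45 and Krt84 at 0.115 ± 0.0505 (SD, n = 3). The neighbours Krt86, Krt81 and Krt83 did not differ beyond their spread across libraries, much of which these genes share. Within each control library Krt86 was above Krt81, with the split of reads between these copies uncertain. The ranges of Krt83 and Krt82 overlapped across libraries, although Krt82 was below the 3 cortex keratins within each control library. Krt84 was far below the others. In the combined mutant the order was Krt83 at 1.17 ± 0.836, Krt81 at 0.683 ± 0.596, Krt86 at 0.679 ± 0.709, Krt84 at 0.663 ± 0.378 and Krt82 at 0.356 ± 0.282 CPM per kilobase, and no neighbours differed beyond their spread across libraries. Within each combined mutant library Krt83 was above Krt81. Krt84 was thus at the bottom of the order in control and within the range of the other genes in the combined mutant.

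The make-up of the type II hair keratin RNA is given as a description, since edgeR called Krt84 in no comparison with all libraries. Of the summed CPM per kilobase of the 5 genes, Krt84 made up 0.0987%, 0.154% and 0.292% in control, 8.57%, 0.31% and 0.678% in Llgl cKO, 0.065%, 0.134% and 0.203% in Trp53 het, and 7.35%, 50.9% and 18.3% in the combined mutant. The sum itself was 126, 105 and 20.9 CPM per kilobase in control and 6.07, 2.16 and 2.42 in the combined mutant, so the larger share came with a small total. In combined mutant 2, Krt84 was the most abundant of the 5 per length. Krt86 made up 42.9%, 35.9% and 27.3% in control against 24.4%, 6.04% and 17.6% in the combined mutant, while Krt83 held 24.7% ± 6.08 and 31.7% ± 8.10 of the sum. The shares are descriptions, and those of the 3 cortex keratins depend on how reads common to the copies were assigned.

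**Figure D3:**
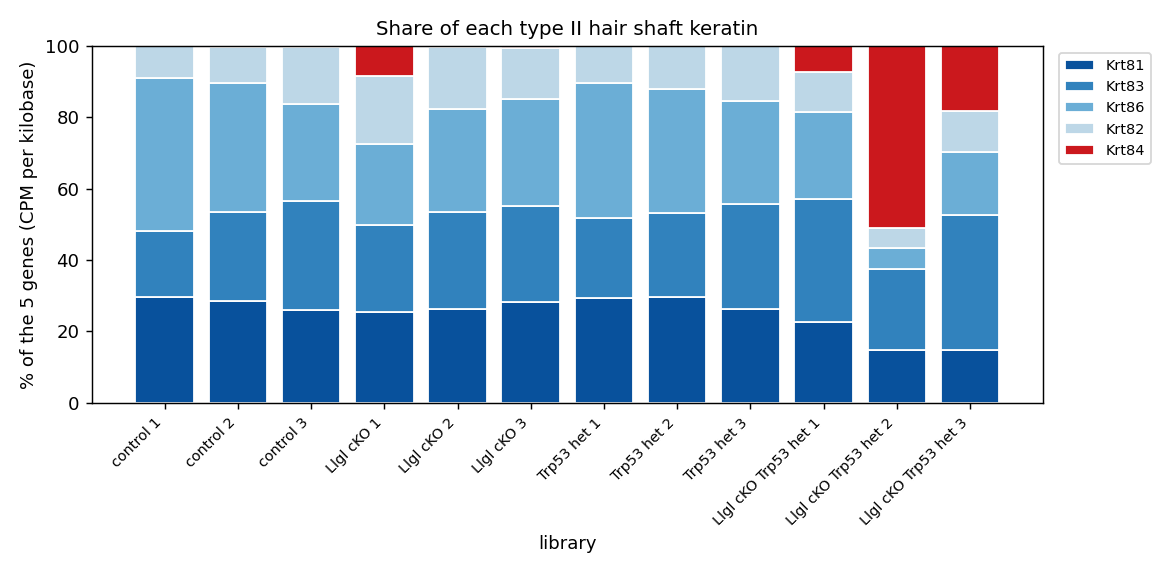
Share of each of the 5 hair keratins (vertical axis, percent of their summed CPM per kilobase of exon) in the 12 libraries (horizontal axis). Krt84, in red, is visible in Llgl cKO 1 and in the 3 Llgl cKO Trp53 het libraries, with 50.9% at most, and is below 1% in the other 8.

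The 4 lower keratins varied together from library to library, within groups as well as between them. Across the 12 libraries the Pearson correlations of their log2 CPM were 0.984 to 0.995 for the 6 pairs, and the correlations of their deviations from the group means were 0.952 to 0.987. Krt84 had correlations of -0.747 to -0.71 with them, and of -0.245 to -0.113 for deviations from group means. The libraries share genotype groups and, for the cortex keratins, reads from near copies, so these values describe the libraries only.

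The genes most like the members were found by Pearson r between log2 CPM and the mean of the 5 genes over the 12 libraries. They were Prr9 (0.996), Krt27 (0.995), Krtap3-1, Krtap15 and Vsig8 (0.994 each), Krtap11-1 and Krtap26-1 (0.993 each) and S100a7a (0.992). Krt27 is an inner root sheath keratin, and the Krtap genes encode keratin-associated proteins of the shaft. For single genes the nearest were Krtap3-1 (0.999) for Krt81, Prr9 (0.996) for Krt86, Crym (0.997) for Krt83, and Fbp1 and Lyg2 (0.992 each) for Krt82. Prr9 measured 485, 429 and 65.5 CPM in control and 22.5, 2.90 and 5.19 in the combined mutant, with control 3 and the combined mutants low as in the cortex keratins, and its average Llgl effect was a log2 difference of -3.29 (edgeR adjusted p = 0.026).

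For Krt84 the nearest gene was Rbp7, a cytoplasmic retinol-binding protein (r = 0.946), followed by Tpd52l2 (0.936). Rbp7 measured 2.94, 1.96 and 0.967 CPM in control, 31.9, 2.04 and 1.06 in Llgl cKO, 3.23, 3.49 and 1.43 in Trp53 het, and 9.18, 26.4 and 7.87 in the combined mutant. Llgl cKO 1 was thus high in both genes and the other 2 Llgl cKO libraries were not. Like Krt84, Rbp7 was not called in the average Llgl effect (log2 difference 2.55, edgeR adjusted p = 0.11).

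The type I hair keratins, which pair with these chains, had differences of like size. All 9 on the list were tested. In the combined mutant against control 6 were called lower and 0 higher, where 0.905% of all genes were called lower. The median log2 difference there was -4.81. In the average Llgl effect 7 were called lower, where 2.15% of all genes were, with a median of -3.33. In Llgl cKO against control 0 were called by edgeR or DESeq2. There an unadjusted edgeR p below 0.05 was found for 6 of the 9 and for 920 of all 14582 genes tested. For Krt33a, a cortex keratin, the average Llgl effect was a fall of 3.34 (SE 0.633, edgeR adjusted p = 0.02). Krt35, which is switched on early in the matrix and cuticle, was at 55.1, 71.2 and 70.0 CPM in control and 29.9, 16.6 and 16.1 in the combined mutant, without overlap, and it was not called (log2 difference -1.65, edgeR adjusted p = 0.13). Per kilobase, the ratio of the summed type II to the summed type I hair keratins was 0.62, 0.54 and 0.323 in control, 0.252, 0.332 and 0.391 in Llgl cKO, 0.59, 0.593 and 0.338 in Trp53 het, and 0.238, 0.147 and 0.17 in the combined mutant. These ratios leave out Krt85, the type II partner of Krt35 in the early matrix.

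Most other keratins of the same cluster differed less. Of 20 other type II keratins listed, 19 were in the table and 17 were tested; 1, Krt71, was called lower in the combined mutant against control (-4.67, edgeR adjusted p = 0.046), and the median was -0.535. In the average Llgl effect 3 were called lower, the inner root sheath keratins Krt71, Krt72 and Krt74. Of all genes tested, 0.905% were called lower against control and 2.15% in the average Llgl effect. Krt1, the suprabasal epidermal keratin, differed by 0.11 (edgeR adjusted p = 0.81) and Krt5, the basal one, by -0.09 (edgeR adjusted p = 0.72). The plot along the cluster shows the members beside their neighbours.

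**Figure D4:**
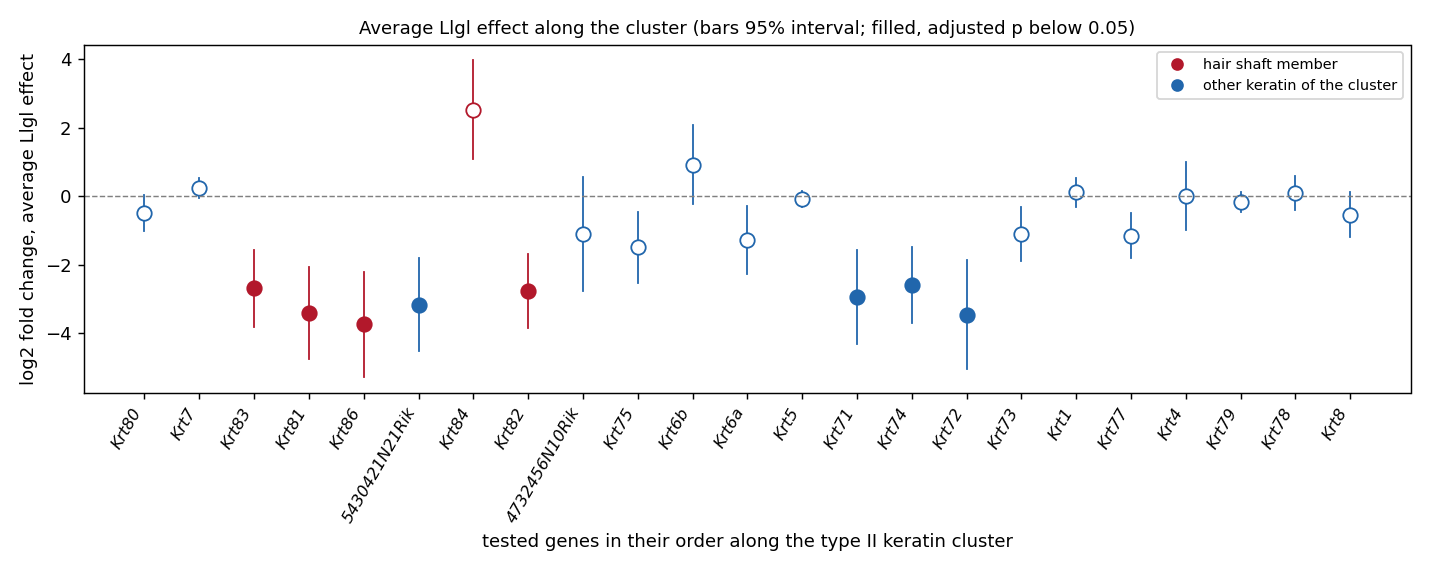
Average Llgl effect as edgeR log2 fold change (vertical axis, bars 95% interval, filled where the adjusted p is below 0.05) of the tested keratins in their order along the type II cluster (horizontal axis, not to scale). The hair keratins Krt83, Krt81, Krt86 and Krt82 lie between -3.74 and -2.70, and Krt84, between 5430421N21Rik and Krt82, lies at 2.52.

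Among the other hair lists, the inner root sheath and companion layer keratins had 5 of 9 called lower in the combined mutant against control (median -4.13) and 6 of 9 in the average Llgl effect (median -2.59), with Krt71 at -2.94 (edgeR adjusted p = 0.029) and Krt25 at -2.49 (0.031). Of 12 non-keratin shaft and sheath proteins, 4 were called lower against control (median -3.20) and 7 in the average Llgl effect (median -1.99). For both lists, the shares of all genes called lower were 0.905% against control and 2.15% in the average Llgl effect. Tchh, trichohyalin of the inner root sheath and medulla, fell by 2.95 in the average Llgl effect (edgeR adjusted p = 0.014), and Tgm3, a transglutaminase also made in the upper epidermis, differed by 0.16 (0.81). Hair matrix transcription factors stood apart from these lists in their values. Of 12 tested, 0 were called by edgeR or DESeq2 in the combined mutant against control, with a median of -0.298. An unadjusted edgeR p below 0.05 was found for 3 of the 12, only 1 of them higher, and for 2023 of all 14582 genes tested. In the average Llgl effect 1 was called higher and 0 lower, where 2.15% of all genes were called lower, with a median of -0.106. The gene called was Lef1, the factor through which Wnt signals act in the matrix (0.92, edgeR adjusted p = 0.027). In this comparison an unadjusted edgeR p below 0.05 was found for 1 of the 12 and for 2661 of all 14582 genes tested. Within control and within Trp53 het, Lef1 was highest in replicate 3, the library with the most fibroblast RNA. In the combined mutant, replicate 3 also had the most fibroblast RNA (626 CPM) but the lowest Lef1. There log2 CPM of Lef1 minus its mean over all libraries was 0.461, against 0.718 and 0.571 in replicates 1 and 2. In Llgl cKO it was 0.518 and 0.334 in replicates 1 and 3, both with fibroblast sums of 429 CPM. Whether Lef1 RNA came from matrix cells was not tested. Ovol1 and Gata3, with the highest mean CPM of the list, differed by 0.01 (edgeR adjusted p = 0.99) and 0.17 (0.53). Hoxc13, a direct activator of hair keratin genes that was singled out after its values were seen, measured 32.5, 28.4 and 24.5 CPM in control and 22.1, 11.3 and 24.6 in the combined mutant and was not called (-0.55, edgeR adjusted p = 0.48). The heat map of these lists gives every library.

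**Figure D5:**
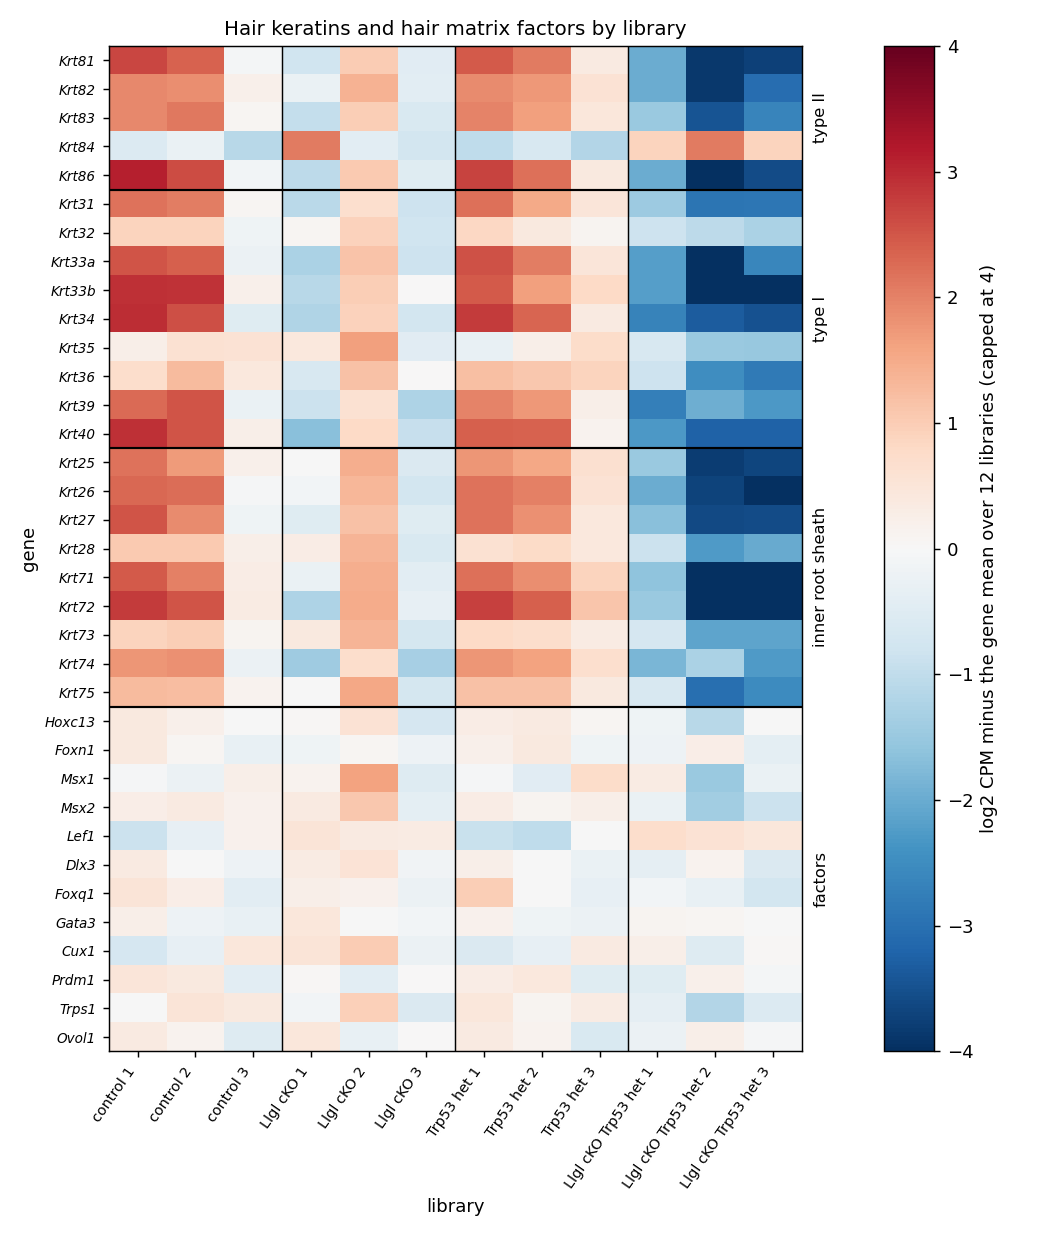
log2 CPM minus each gene's mean over the 12 libraries (colour, capped at 4) for type II and type I hair keratins, inner root sheath keratins and hair matrix transcription factors (rows) in the 12 libraries (columns). In the Llgl cKO Trp53 het libraries Krt84 is above its mean and the other hair keratins are below theirs. The factors show paler colours than the keratins in these libraries.

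Markers of other cells moved with the hair keratins in some libraries. The 8 fibroblast markers summed to 129, 251 and 523 CPM in control, 429, 410 and 429 in Llgl cKO, 169, 202 and 531 in Trp53 het, and 568, 561 and 626 in the combined mutant, and no marker was at 0 throughout a group. The sums rest most on Postn and Dcn (means of 271 and 106 CPM), and the markers did not move together. In the average Llgl effect 4 of the 7 tested were above 0 and 3 below (median log2 difference 0.182). There edgeR called 0 and DESeq2 called 1 higher, where DESeq2 called 7.09% of all genes. Within control and Trp53 het the library with the most fibroblast RNA, replicate 3, was the lowest in Krt81, Krt82, Krt83 and Krt86. In Llgl cKO the library with the lowest sum, replicate 2, was the highest in these keratins. In the combined mutant the highest sum was in replicate 3, while these keratins were lowest in replicate 2. The 8 dermal papilla markers summed to 11.6, 29.4 and 103 CPM in control and 85.7, 35.4 and 64.9 in the combined mutant, which overlap. Vcan had the highest mean of them (42.8 CPM). The 5 that were tested were all above 0 in the average Llgl effect (median log2 difference 0.879), where edgeR called 0 and DESeq2 called 1 higher. In the combined mutant against control 4 were above 0 and 1 below (median 0.525). The 7 adipocyte markers summed to 36.1, 25.3 and 12.4 CPM in control and to 8.11, 10.7 and 10.7 in Llgl cKO, where Car3 was at 0. They summed to 24.7, 24.3 and 16.3 CPM in Trp53 het and 5.81, 8.62 and 6.03 in the combined mutant, where Cidec was at 0. Of the 3 that were tested, 2 were called lower in the average Llgl effect, where 2.15% of all genes were. These were Fabp4, a fatty acid-binding protein (-2.94, edgeR adjusted p = 0.025), and Retn, which encodes resistin (-3.83, edgeR adjusted p = 0.038). Both values lay in the range of the 4 keratins or beyond it. The 10 T cell markers summed to 51.8, 54.8 and 40.5 CPM in control and to 72.2, 61.8 and 31.8 in Trp53 het. With the Llgl1/2 flox alleles they summed to 17.2, 23.0 and 32.1 CPM in Llgl cKO and 37.3, 22.5 and 28.3 in the combined mutant. All 10 were tested and 2 were called lower in the average Llgl effect, where 2.15% of all genes were. They were the T cell receptor component Cd3g (-2.32, edgeR adjusted p = 0.035) and the interleukin receptor chain Il2rb (-2.44, edgeR adjusted p = 0.023). The 9 mitochondrial transcripts summed to 8110, 11900 and 12900 CPM in control and 11700, 15300 and 16900 in the combined mutant, which overlap. The 6 of them that were tested had log2 differences above 0 (median 0.465), and 0 were called by edgeR or DESeq2. An unadjusted edgeR p below 0.05 was found for 2 of the 6 and for 2023 of all 14582 genes tested. The part of these cells and transcripts in the keratin differences was not tested. Without control 3 and Trp53 het 3 the fibroblast sums of control and Trp53 het were 129 to 251 CPM, farther from those of the combined mutant. Melanocyte markers, from cells that sit in the hair bulb and epidermis, summed to 362, 513 and 575 CPM in control and 482, 337 and 508 in the combined mutant, and overlapped.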

How the data were processed

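The authors aligned reads with STAR and counted them with featureCounts 1.6.4 on GRCm38, and also named DESeq2 2.11.40.8, per the submitters' processing notes. Libraries were made from total RNA with a stranded mRNA kit, per the labels' protocols. Annotation release, strand setting and the treatment of reads with several matches are not given in the sources used here. The deposited table holds raw counts per gene and library, as whole numbers with no normalization, and 0 of its sample columns were left unused.

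From these counts, edgeR 4.0.16 in R 4.3.3 kept genes by filterByExpr over the 4 groups (minimum count 10), scaled libraries by TMM and fitted a quasi-likelihood model with robust estimation to all 12 libraries (8 residual degrees of freedom). The 7 comparisons were adjusted by Benjamini-Hochberg over 14582 genes, with calls at 0.05. SE is the log2 fold change divided by the square root of F, and intervals use t on the total degrees of freedom, which is an approximation. The square root of the common dispersion was 23.8%. log2 CPM used a prior count of 2, and CPM per kilobase used the union of GENCODE M21 exons. Counting error only is covered by the counts given, since reads were not counted as unique molecules. The fit was run on simulated counts with independent libraries, in which only genes with more counts than Krt84 were changed. That run checks the code and does not bear on the calls given here.

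The members and lists were chosen with earlier results of these data known. Named genes were the members and the 2 genes of each context list with the highest mean CPM (those of the other cell type lists are given by their sums). The genes with the highest r to the members, without predicted names, were also named. Krt72, Krt74, Lef1, Hoxc13, Fabp4, Cd3g, Il2rb and 5430421N21Rik were named outside that rule, after their values were seen. So were Car3 and Cidec, the adipocyte genes at 0 in a group. Same-numbered libraries of control and Trp53 het deviated together from their group means (r = 0.62, 0.21 and 0.82 across genes), only weakly for replicate 2. Values for libraries of different number are not given here, so pairing by number is not shown. The main tests did not pair libraries, and the labels give no batch or pairing. Alternatives changed the tool (DESeq2 1.42.0), the scaling (median of ratios or upper quartile), the filter (none, or 1 CPM in at least 3 libraries), the null (a change of under 1.5-fold), the samples fitted (the compared groups alone, each library left out in turn, or 2 pairs of libraries left out) and the covariates (a replicate block). Summing the copies was added after the data had been seen.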

Additional observations from a re-analysis of the deposited data

How the results depend on the processing

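Of the 5 members, the numbers called moved most with the filter and with the libraries used. With no low-count filter 0 were called in the combined mutant against control, against Trp53 het and in the average Llgl effect. Requiring at least a 1.5-fold change gave 0 in the first 2 of these, and a fit of the compared groups alone, which has fewer libraries, gave 0 against control. DESeq2 called 1 in the combined mutant against Llgl cKO. Leaving out each library in turn gave 0 to 4 called against control, 0 to 4 against Trp53 het and 0 to 5 in the average Llgl effect. Against Trp53 het, 0 were called without control 2, without replicate 1 or 2 of Trp53 het, or without replicate 2 or 3 of the combined mutant, 1 without control 1 or Llgl cKO 3, and 2 without combined mutant 1. In the average Llgl effect 0 were called without replicate 2 or 3 of the combined mutant, and 2 without control 2 or Llgl cKO 1. The highest edgeR adjusted p over the alternatives for Krt81, Krt82, Krt83 and Krt86 was 0.18, 0.15, 0.19 and 0.20 against control, 0.17, 0.14, 0.18 and 0.18 against Trp53 het, and 0.063, 0.054, 0.075 and 0.075 in the average Llgl effect. The direction of these 4 genes held under every alternative run in these 3 comparisons.

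With replicate number as a block, 4 members were called against control, against Trp53 het and in the average Llgl effect, and 0 in the other comparisons, so no count changed; that fit called 2.38%, 2.58% and 4.55% of all genes in the first 3. The labels give no pairing, and the main tests did not pair libraries by number.

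Signs reversed in Trp53 het against control, where every difference was within 1 SE of 0. Krt82 turned to 0.00947 with no low-count filter and to 0.0601 with the replicate block. Over all alternatives, Krt81 ran between -0.673 and 0.263, Krt82 between -0.4 and 0.314, Krt83 between -0.515 and 0.251, and Krt86 between -0.825 and 0.26. Without Trp53 het 3 and combined mutant 1, the libraries of their groups with the most Trp53, they were at 0.221, 0.314, 0.24 and 0.112. Krt84 in the combined mutant against Llgl cKO ran from -0.0267 without combined mutant 2 to 2.42 without Llgl cKO 1. The causes were not tested. Depth limits Krt84, with 2 to 5 counts in 8 of the 12 libraries.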
